A study of Mus musculus with 12 samples.

Results

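The 10 genes studied here mark macrophages of the liver and were followed through normal mouse liver and liver tumors, with Clec4f, Marco, Vsig4, Timd4 and Cd5l as markers of resident Kupffer cells, Adgre1, Csf1r and Cd68 as markers of macrophages in general, and Trem2 and Gpnmb as markers of lipid-associated macrophages. They were chosen by name from the 26301 genes with counts. RNA was measured in 4 control livers and 8 spontaneous liver tumors. The control samples were non-tumor adult livers labelled wild-type, taken from littermates without Cre. The 4 libraries labelled DKO came from tumors that arose after Alb-Cre removed E2f7 and E2f8, and the 4 labelled TKO from tumors that arose after it removed Rb1 as well. The mice were on an FVB background and belonged to a study of lifespan, in which animals were collected at or near the end of life. Cre was driven by the albumin promoter, which is active in hepatocytes, and macrophages were not its target. Whole tissue was sequenced, and in such samples fewer cells of a type and less RNA per cell cannot be told apart.

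Kupffer cells are the macrophages that live inside the liver sinusoids, where they take up bacteria, aged red blood cells and particles from portal blood. Most of them descend from embryonic precursors and renew themselves in place, and they depend on signalling through the receptor Csf1r. When resident cells are lost, or when tissue is injured, monocytes enter from the blood, and the macrophages they form at first lack genes of the mature Kupffer cell such as Timd4 and Clec4f. Macrophages that handle dying cells and excess lipid, in fatty liver and in tumors, are known for Trem2, Gpnmb and lysosomal genes.

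The 3 genes whose levels followed each other most closely in these libraries were Clec4f, Vsig4 and Cd5l, and the sequence of 250 bases before their transcription start is given to show what lies in front of them, with that of Trem2, which did not follow them. The sequences are from RefSeq (GRCm38.p6) and read 5′ to 3′ on the strand of the gene. Capitals mark the letters GAGGAA, the core bound by the myeloid factor PU.1, and TGCTGA, a half-site of MAF factors, on either strand.
Clec4f (chr6:83656117-83656366, minus strand): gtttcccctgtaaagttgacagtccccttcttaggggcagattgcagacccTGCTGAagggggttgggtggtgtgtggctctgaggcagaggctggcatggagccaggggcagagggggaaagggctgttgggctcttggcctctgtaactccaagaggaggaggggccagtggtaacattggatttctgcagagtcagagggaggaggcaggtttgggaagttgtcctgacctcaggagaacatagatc
Vsig4 (chrX:96293439-96293688, minus strand): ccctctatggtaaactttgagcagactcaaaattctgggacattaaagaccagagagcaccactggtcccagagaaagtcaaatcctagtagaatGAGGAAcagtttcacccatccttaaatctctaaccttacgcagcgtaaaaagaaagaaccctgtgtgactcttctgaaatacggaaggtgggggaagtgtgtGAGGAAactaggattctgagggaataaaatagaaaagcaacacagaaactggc
Cd5l (chr3:87357631-87357880, plus strand): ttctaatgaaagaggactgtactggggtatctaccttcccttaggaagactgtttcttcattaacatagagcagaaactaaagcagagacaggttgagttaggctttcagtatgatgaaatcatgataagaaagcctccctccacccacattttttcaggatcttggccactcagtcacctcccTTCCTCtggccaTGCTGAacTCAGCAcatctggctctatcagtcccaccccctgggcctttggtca
Trem2 (chr17:48346151-48346400, plus strand): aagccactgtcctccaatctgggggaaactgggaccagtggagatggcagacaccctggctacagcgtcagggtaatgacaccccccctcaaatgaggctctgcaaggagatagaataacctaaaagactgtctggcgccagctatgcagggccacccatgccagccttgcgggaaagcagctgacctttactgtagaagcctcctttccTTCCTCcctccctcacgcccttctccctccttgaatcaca

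A promoter of that length was matched for 8 of the 10 genes. GAGGAA or its complement was in 5 of the 8, those of Cd5l, Cd68, Marco, Trem2 and Vsig4, and in 23.3% of the 32851 promoters of the same length. TGCTGA or its complement was in 3 of the 8, those of Cd5l, Clec4f and Timd4, and in 16.1% of all. The E-box CACGTG, which is its own complement and is bound by MITF and TFE factors, was in 0 of the 8 and in 6.02% of all. The Cd5l sequence held both motifs within 66 bases of the start, with the PU.1 letters on the minus strand from position 66 and the MAF half-sites from positions 54 and 46, counted back from the start. These matches are letters in a window, and binding was not measured.

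All 10 genes passed the filter on low counts, as did 13882 genes in all. The total count per library was 9165812 to 16424973, and albumin took 4.82% to 22.7% of it. The lowest and highest counts of a member in a library were 4 and 46 for Trem2 and 5 and 196 for Marco, so that counting error is largest in these genes. Rb1, the gene deleted in TKO alone, was at 3.21 to 5.47 CPM (counts for each 1e+06 counts of the library, with library totals scaled by the TMM method) in the libraries labelled TKO and at 6.52 CPM or more in every other library. E2f7 was at 0.812 ± 0.239 CPM in control livers, 1.15 ± 0.716 in DKO and 0.803 ± 0.0882 in TKO (SD, n = 4 each), and E2f8 was at 6.24 ± 1.92, 20.5 ± 17.2 and 26.1 ± 18.5 CPM. Neither gene's counts thus fell in the tumors labelled as lacking it (adjusted p = 0.582 and 0.103 in DKO against control by edgeR), and whether the counts come from the deleted exons was not tested, so DKO and TKO stand for the labels of the libraries throughout. The leukocyte gene Ptprc was at 10.4 ± 6.18 CPM in control livers, 9.12 ± 3.88 in DKO and 7.94 ± 1.92 in TKO, and the myeloid lysozyme gene Lyz2 at 62.0 ± 24.9, 74.9 ± 11.5 and 68.5 ± 19.7 CPM.

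For the order of the genes, CPM was divided by the exon length in kilobases. In control livers Clec4f stood highest, at 54.4 ± 25.2 CPM per kilobase (SD, n = 4), then Cd5l at 45.3 ± 22.7 and Vsig4 at 35.1 ± 14.4. The SDs of these neighbours overlap, but their order was the same within each control liver. There, Clec4f counts per Cd5l count were 1.30 to 1.74 and per Vsig4 count 2.27 to 2.80, before division by length. The order was not tested. Cd68 followed at 10.9 ± 3.50 CPM per kilobase, Csf1r at 9.51 ± 5.72 and Adgre1 at 6.34 ± 4.20, and below them Timd4 at 4.44 ± 2.09 and Marco at 3.57 ± 2.60. Gpnmb, at 1.02 ± 0.930 CPM per kilobase, and Trem2, at 0.197 ± 0.162, were the lowest of the 10 genes in control livers. By group mean, Clec4f, Cd5l and Vsig4 also stood above the rest in DKO tumors, at 26.7 ± 28.6, 23.7 ± 18.6 and 18.2 ± 14.3 CPM per kilobase, and Cd68 was next at 14.7 ± 5.56. This order did not hold in DKO 4. There, before division by length, Cd68 was at 25.2 CPM and Clec4f, Cd5l and Vsig4 were at 5.84, 5.60 and 2.95 CPM.

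No marker passed the test between any groups. For Clec4f, Marco, Vsig4, Timd4 and Cd5l, tumors of each genotype lay both within the range of the control livers and below it. By edgeR's quasi-likelihood test with Benjamini-Hochberg adjustment, 0 of 10 markers were called in DKO against control, where 2.42% of all tested genes were, and 0 of 10 in TKO against control, where 0.0864% were. In TKO against DKO 0 of 10 were called and 0% of all genes, and with all tumors set against control 0 of 10 and 2.48%. DESeq2 also called 0 of 10 in each comparison, with 9.95% of its tested genes called in DKO against control, 3.32% in TKO against control, 0.398% in TKO against DKO and 9.49% in all tumors against control. The values of 0 of 10 markers were free of overlap between the groups of any comparison, against 16.2% of genes for DKO and control, 7.67% for TKO and control, 4.87% for TKO and DKO, and 3.66% for all tumors and control. At an unadjusted p under 0.05, edgeR gave 1 marker, Marco, in TKO against control and in all tumors against control. DESeq2 gave Marco in both of these and in DKO against control. The plot of the markers by library shows every value.

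**Figure D1:**
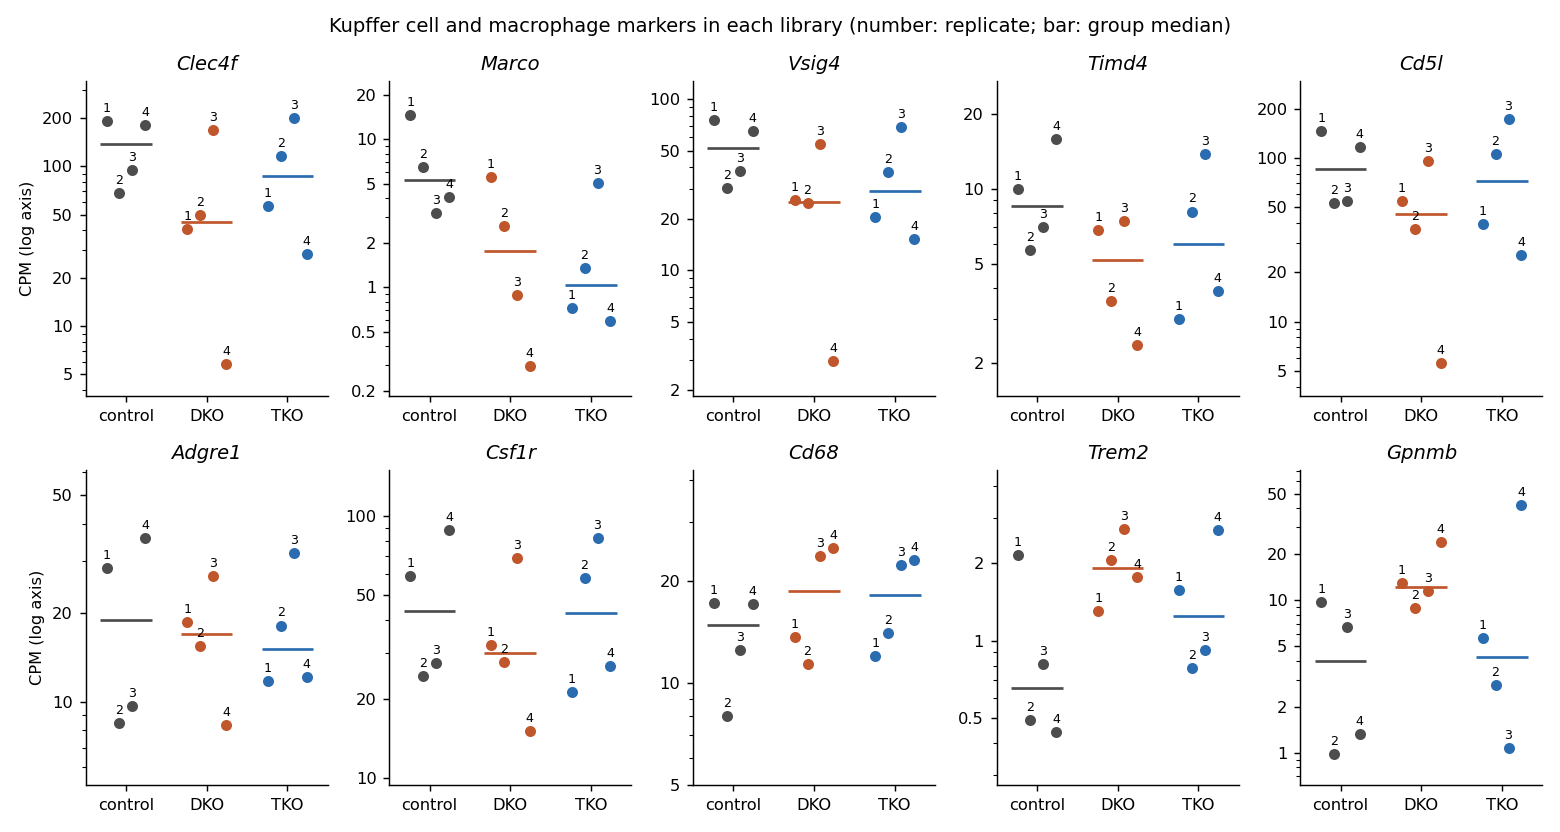
Level of each of the 10 markers in CPM (log axis) in 4 control livers, 4 DKO tumors and 4 TKO tumors; each point is a library, the number is its replicate and the bar is the group median. The groups overlap for every marker, library DKO 4 is the lowest of the 12 for the first 7 genes, and it is the highest for Cd68.

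Clec4f, a lectin receptor for galactose-bearing glycoproteins that in mice is found on Kupffer cells, lies on chromosome 6 (mm9, 83594536 to 83606181, minus strand). It was at 193, 68.6, 94.4 and 183 CPM in control livers 1 to 4, at 40.5, 49.7, 168 and 5.84 CPM in DKO tumors 1 to 4, and at 56.6, 116, 201 and 28.3 CPM in TKO tumors 1 to 4. In all, 3 DKO tumors and 2 TKO tumors were below every control liver, DKO 3 was among the controls, and TKO 3 was the highest of the 12 libraries. In DKO against control its log2 fold change was -1.03 (SE 0.792, 95% confidence interval -2.75 to 0.70, adjusted p = 0.461 by edgeR), and in TKO against control -0.42 (SE 0.785, -2.12 to 1.29, adjusted p = 0.843). The former was -0.64 without DKO 4 and -2.08 without DKO 3, and the latter was -0.12 without TKO 4 and -1.004 without TKO 3.

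Vsig4, the complement receptor with which Kupffer cells catch bacteria coated with complement, lies on the X chromosome (93442542 to 93488777, minus strand). It was at 75.1, 30.2, 38.2 and 65.1 CPM in control livers, 25.7, 24.6, 54.7 and 2.95 CPM in DKO tumors, and 20.5, 37.7, 68.7 and 15.3 CPM in TKO tumors. As with Clec4f, 3 DKO and 2 TKO tumors fell below every control, and DKO 3 and TKO 3 were within the controls. In DKO against control its log2 fold change was -0.95 (SE 0.664, adjusted p = 0.410 by edgeR), and it was -0.58 without DKO 4 and -1.56 without DKO 3.

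Cd5l, a secreted scavenger protein that macrophages make and that keeps them alive during infection, lies on chromosome 3 (87161803 to 87174996, plus strand). Its levels were 145, 52.9, 54.2 and 117 CPM in control livers, 54.3, 36.9, 96.2 and 5.60 CPM in DKO tumors, and 39.3, 105, 173 and 25.5 CPM in TKO tumors. Here 2 tumors of each genotype were below every control and TKO 3 was above every control. The log2 fold change was -0.94 in DKO against control (SE 0.731, adjusted p = 0.466 by edgeR) and -0.11 in TKO against control (SE 0.724, adjusted p = 0.966).

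Timd4, a receptor for phosphatidylserine on dying cells and a mark of long-lived resident macrophages, lies on chromosome 11 (46624302 to 46657834, plus strand). It was at 10.01, 5.66, 7.05 and 15.9 CPM in control livers, 6.82, 3.56, 7.45 and 2.36 CPM in DKO tumors, and 3.01, 8.10, 13.7 and 3.88 CPM in TKO tumors. DKO 2, DKO 4, TKO 1 and TKO 4 were below every control, and no tumor was above the highest control. Its log2 fold change in DKO against control was -0.94 (SE 0.511, 95% confidence interval -2.05 to 0.17, adjusted p = 0.282 by edgeR), -0.70 without DKO 4.

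Marco, a scavenger receptor for bacteria and particles, lies on chromosome 1 (122371115 to 122401661, minus strand). It was at 14.5, 6.52, 3.19 and 4.10 CPM in control livers, 5.52, 2.61, 0.887 and 0.295 CPM in DKO tumors, and 0.724, 1.35, 5.06 and 0.597 CPM in TKO tumors. Of the 8 tumors, 6 were below every control, and the other two, DKO 1 and TKO 3, were among the controls. In all tumors against control the log2 fold change was -1.75 (SE 0.691, 95% confidence interval -3.25 to -0.25, unadjusted p = 0.0256, adjusted p = 0.155 by edgeR), which was the largest difference of the 10 markers in that comparison and did not pass. Without TKO 3 it was -2.30 (adjusted p = 0.0515), and without control 1, the highest library, -1.12 (adjusted p = 0.404). By DESeq2 the adjusted p was 0.0902. In DKO against control the log2 fold change was -1.62 (adjusted p = 0.264), and in TKO against control -1.88 (unadjusted p = 0.0474, adjusted p = 0.301).

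Of the general markers, Adgre1 encodes F4/80, the surface protein by which mouse macrophages are usually sorted, and lies on chromosome 17 (57498109 to 57622952, plus strand). Adgre1 was at 28.3, 8.48, 9.69 and 35.9 CPM in control livers, 18.6, 15.5, 26.7 and 8.37 CPM in DKO tumors, and 11.8, 18.1, 31.9 and 12.1 CPM in TKO tumors. The control livers themselves fell into a low and a high pair, and 7 of the 8 tumors were between the lowest and the highest control. DKO 4 was just below the lowest. Over all tumors against control the log2 fold change was -0.21 (SE 0.428, 95% confidence interval -1.14 to 0.72, adjusted p = 0.810 by edgeR).

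Csf1r is the receptor for the growth factors Csf1 and Il34, on which macrophages depend. Its exons overlap those of Hmgxb3 on the other strand, and since the strand setting of the counting was not stated its level is uncertain to that extent. It was at 58.8, 24.5, 27.6 and 88.1 CPM in control livers, 32.3, 27.6, 69.1 and 15.1 CPM in DKO tumors, and 21.3, 58.1, 82.0 and 26.9 CPM in TKO tumors. DKO 4 and TKO 1 were below every control and the other tumors were within the controls. The log2 fold change was -0.47 in DKO against control (SE 0.550, adjusted p = 0.640 by edgeR) and -0.08 in TKO against control (SE 0.548, adjusted p = 0.964). The ligand genes did not pass either, with Csf1 at 14.9 ± 7.56 CPM in control livers, 12.8 ± 3.54 in DKO and 14.3 ± 3.67 in TKO, and Il34 at 2.13 ± 1.02, 1.63 ± 0.743 and 2.00 ± 0.481 CPM (SD, n = 4 each).

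Cd68, a glycoprotein of macrophage lysosomes, lies on chromosome 11 (69477715 to 69479655, minus strand). It was at 17.2, 7.99, 12.5 and 17.1 CPM in control livers, 13.6, 11.4, 23.8 and 25.2 CPM in DKO tumors, and 12.1, 14.1, 22.3 and 23.2 CPM in TKO tumors. Tumors 3 and 4 of each genotype were above every control, and no tumor was below the lowest control. Library DKO 4, the lowest of the 12 for the 7 preceding markers, was the highest for Cd68. All tumors against control gave a log2 fold change of 0.40 (SE 0.283, 95% confidence interval -0.21 to 1.02, adjusted p = 0.424 by edgeR).

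Trem2, a lipid-sensing receptor of macrophages, lies on chromosome 17 (48485726 to 48493472, plus strand). It was at 2.15, 0.492, 0.813 and 0.439 CPM in control livers, 1.30, 2.06, 2.72 and 1.77 CPM in DKO tumors, and 1.57, 0.782, 0.920 and 2.69 CPM in TKO tumors. Control livers 2, 3 and 4 were below every DKO tumor, and control 1 was above 3 of the 4. Its log2 fold change in DKO against control was 0.98 (SE 0.531, 95% confidence interval -0.17 to 2.14, adjusted p = 0.279 by edgeR), and without control 1 it was 1.72 (adjusted p = 0.0774).

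Gpnmb, a transmembrane glycoprotein of lysosome-rich macrophages that pigment cells also make, lies on chromosome 6 (48986517 to 49020928, plus strand). It was at 9.79, 0.984, 6.71 and 1.32 CPM in control livers, 13.03, 8.86, 11.5 and 24.0 CPM in DKO tumors, and 5.67, 2.77, 1.07 and 42.1 CPM in TKO tumors. Of the DKO tumors 3 were above every control, whereas of the TKO tumors TKO 4 alone was above them. In DKO against control the log2 fold change was 1.58 (SE 0.975, adjusted p = 0.346 by edgeR). In TKO against control it was 1.43 (SE 0.974, adjusted p = 0.498), and it turned to -0.58 without TKO 4. With voom quality weights, which give less weight to libraries that vary more, it was 0.0018, and with the replicate number as a block 0.58.

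Between the tumor genotypes no marker passed. The log2 fold change in TKO against DKO was 0.61 for Clec4f (95% confidence interval -1.10 to 2.32), 0.83 for Cd5l (-0.75 to 2.42), 0.50 for Timd4 (-0.60 to 1.61), 0.40 for Vsig4 (-1.04 to 1.83) and -0.26 for Marco (-2.13 to 1.61). For Trem2 it was -0.40 (-1.52 to 0.72) and for Gpnmb -0.16 (-2.19 to 1.87). All of these intervals include 0 and are wide, with 4 tumors of each genotype, and the smallest adjusted p of a marker was 0.750, for Cd5l.

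**Figure D2:**
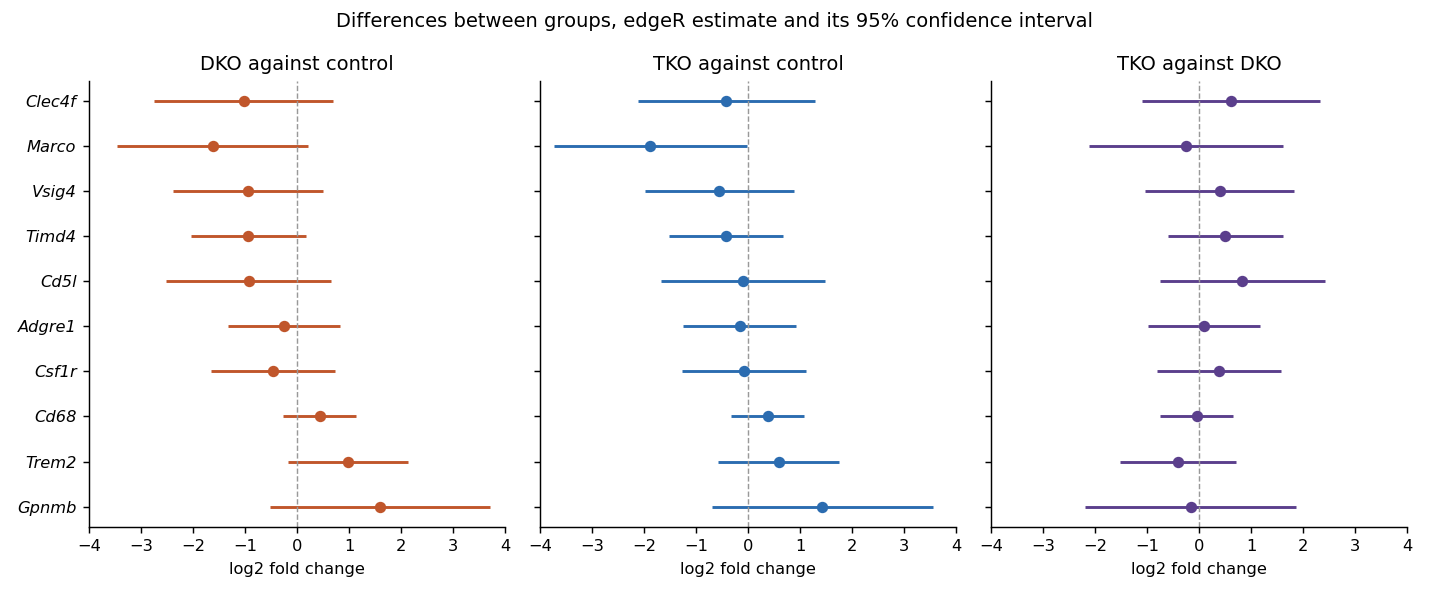
Log2 fold change of each marker (points) with its 95% confidence interval (lines) from edgeR, for DKO against control, TKO against control and TKO against DKO. The 5 resident markers lie below 0 and Cd68, Trem2 and Gpnmb above 0 in both tumor groups against control, though in TKO Cd5l changes sides without control 1, control 4, TKO 1 or TKO 4 and Gpnmb without TKO 4, and all intervals but that of Marco in TKO against control cross 0.

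The 5 resident markers had log2 fold changes below 0 in both tumor groups, although that of Cd5l in TKO against control turned to 0.20 without control 1, 0.03 without control 4, 0.13 without TKO 1 and 0.19 without TKO 4, with a median of -0.95 in DKO against control, -0.44 in TKO against control and -0.72 in all tumors against control, where the median over all 13882 tested genes was 0.02 in each. Of the 3 general markers 1 was above 0, and both lipid-associated markers were. Since the comparisons of DKO and of TKO share the control livers, these directions are not separate observations.

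The spread within groups differed between the markers. In DKO tumors the SD of log2 CPM was 1.99 for Clec4f, 1.78 for Vsig4 and 1.76 for Cd5l, where the median over all tested genes was 0.289, and Clec4f stood at the 99.6th percentile of all genes. In TKO tumors Gpnmb was the most variable marker, with an SD of 2.18 where the median over all genes was 0.324. Control livers varied too, by 2.81-fold from the lowest to the highest library for Clec4f, 4.23-fold for Adgre1, 4.56-fold for Marco, 4.90-fold for Trem2 and 9.95-fold for Gpnmb. For Adgre1, Trem2 and Gpnmb the SD of log2 CPM was larger in control livers, at 1.05, 0.904 and 1.57, than in DKO tumors, at 0.692, 0.411 and 0.603.

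Several of the markers moved together across libraries. Pearson's r of log2 CPM was computed for all 45 pairs over the 12 libraries, with permutation tests of 100000 resamples, two-sided, and Benjamini-Hochberg adjustment over the 45 pairs. In 19 pairs the adjusted p was under 0.05, all of them positive, and in 16 it was by Spearman's rank correlation. Clec4f, Vsig4, Timd4, Cd5l, Adgre1 and Csf1r were among them in every pair that they form. The share of pairs of all tested genes that would pass was not computed, so whether 19 of 45 is unusual is not known. Clec4f and Vsig4 had r = 0.985 (rho = 0.958, permutation p = 1e-05, the smallest that the resamples can give, adjusted p = 0.00015), and r was 0.956 without DKO 4 and TKO 4, the libraries farthest from the median of Clec4f. As deviations from the group means, which removes the difference between groups, r was 0.983. Clec4f and Cd5l had r = 0.974 (rho = 0.923, adjusted permutation p = 0.00015), Clec4f and Timd4 0.846 (rho = 0.888, adjusted permutation p = 0.00115), and Clec4f and Csf1r 0.854 (rho = 0.804, adjusted permutation p = 0.000945). Without DKO 4 and TKO 4 these were 0.912, 0.801 and 0.872, and as deviations from the group means 0.971, 0.806 and 0.869. Adgre1 and Csf1r had r = 0.931 (rho = 0.951, adjusted permutation p = 0.00015), and 0.949 as deviations from the group means. The coordinated levels thus ran within the groups, from livers and tumors with much of all 6 transcripts to those with little.

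Marco was the loosest of the resident markers. With Clec4f it had r = 0.607 (rho = 0.545, permutation p = 0.0329, adjusted p = 0.0699), and r was 0.176 without DKO 4 and TKO 4. It passed with Vsig4 (r = 0.696, rho = 0.678, adjusted permutation p = 0.0213), Cd5l (r = 0.669, rho = 0.643, adjusted permutation p = 0.0352) and Timd4 (r = 0.666, rho = 0.573, adjusted permutation p = 0.0466), and without DKO 4 and control 1 these r were 0.415, 0.367 and 0.516. DKO 3 and TKO 2 had much Clec4f with little Marco, and Marco counts per Clec4f count were 0.0225 to 0.0950 in control livers, 0.00527 to 0.136 in DKO tumors and 0.0116 to 0.0251 in TKO tumors.

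Over all 12 libraries Cd68 did not follow the other macrophage markers. Its r was -0.118 with Clec4f (rho = 0.0699, adjusted permutation p = 0.770) and 0.289 with Csf1r (rho = 0.238, adjusted permutation p = 0.425). Without DKO 4 and TKO 4 the r of Cd68 and Clec4f was 0.741, so that these 2 tumors set the relation. Without DKO 4 alone, the r of Cd68 was 0.335 with Clec4f, 0.652 with Adgre1 and 0.623 with Csf1r. With Csf1r it was 0.156 without TKO 3 and control 4. Trem2 and Gpnmb followed each other, with r = 0.837 (rho = 0.769, permutation p = 0.00104, adjusted p = 0.0039), and 0.718 without control livers 2 and 4. The r of Gpnmb with Clec4f was -0.607 (rho = -0.601, permutation p = 0.034, adjusted p = 0.0699), and -0.328 without DKO 4 and TKO 4.

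**Figure D3:**
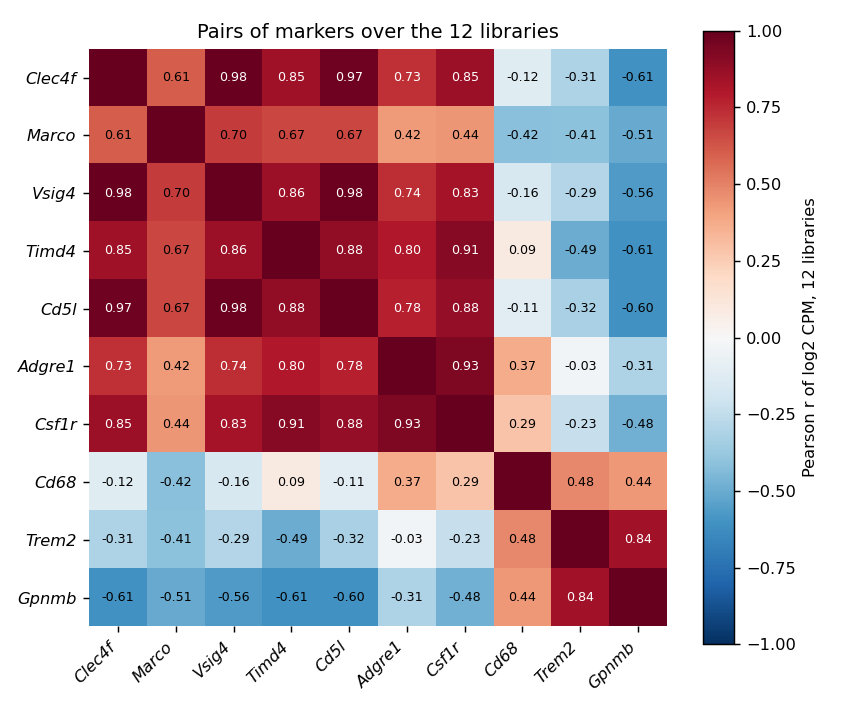
Pearson's r of log2 CPM for each pair of markers over the 12 libraries, from blue (-1) to red (1). Clec4f, Vsig4, Timd4, Cd5l, Adgre1 and Csf1r form a block of high positive r, Trem2 and Gpnmb a pair at 0.84, and Cd68 lies between them.

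**Figure D4:**
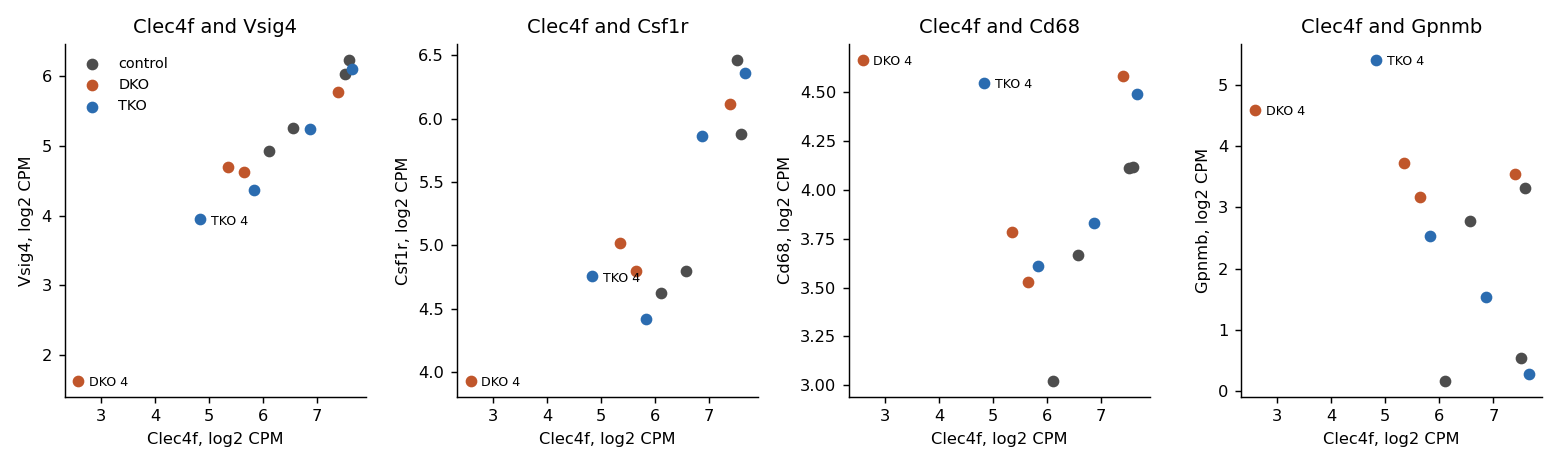
Log2 CPM of Vsig4, Csf1r, Cd68 and Gpnmb against that of Clec4f, with 1 point for each of the 12 libraries, colored by group. Vsig4 and Csf1r rise with Clec4f through all 3 groups, while in Cd68 and Gpnmb the tumors DKO 4 and TKO 4 combine low Clec4f with high values.

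The makeup of the marker counts was also read within each library, which does not depend on library size. This was done after the levels had been seen and has no test. The 5 resident markers took 72.9% to 79.4% of the counts of the 10 genes in control livers. In DKO tumors they took 62.8%, 64.2%, 71.0% and 18.6%, which put every DKO tumor below every control liver. TKO tumors gave 69.7%, 74.1%, 77.0% and 40.8%, of which the second and the third were among the controls. Trem2 and Gpnmb together took 0.333% to 2.96% in control livers, 6.78%, 5.97%, 3.09% and 28.2% in DKO tumors, and 4.20%, 0.979%, 0.332% and 24.8% in TKO tumors. Every DKO tumor was thus above every control, while TKO tumors lay on both sides. DKO 3 was so only narrowly, at 3.09% against 2.96% in control 3. Of single genes, 16.2% had no overlap between DKO and control. The shares are parts of the same total, so a low resident share can raise the other and they are not separate observations. Gpnmb counts exceeded Trem2 counts in every library, with 407 to 30 in DKO 4, 565 to 36 in TKO 4 and 14 to 12 in TKO 3, so the lipid-associated share was mostly that of Gpnmb. For each Cd68 count there were 7.53 to 11.2 Clec4f counts in control livers, 2.97, 4.36, 7.08 and 0.232 in DKO tumors, and 4.70, 8.28, 9.02 and 1.22 in TKO tumors.

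**Figure D5:**
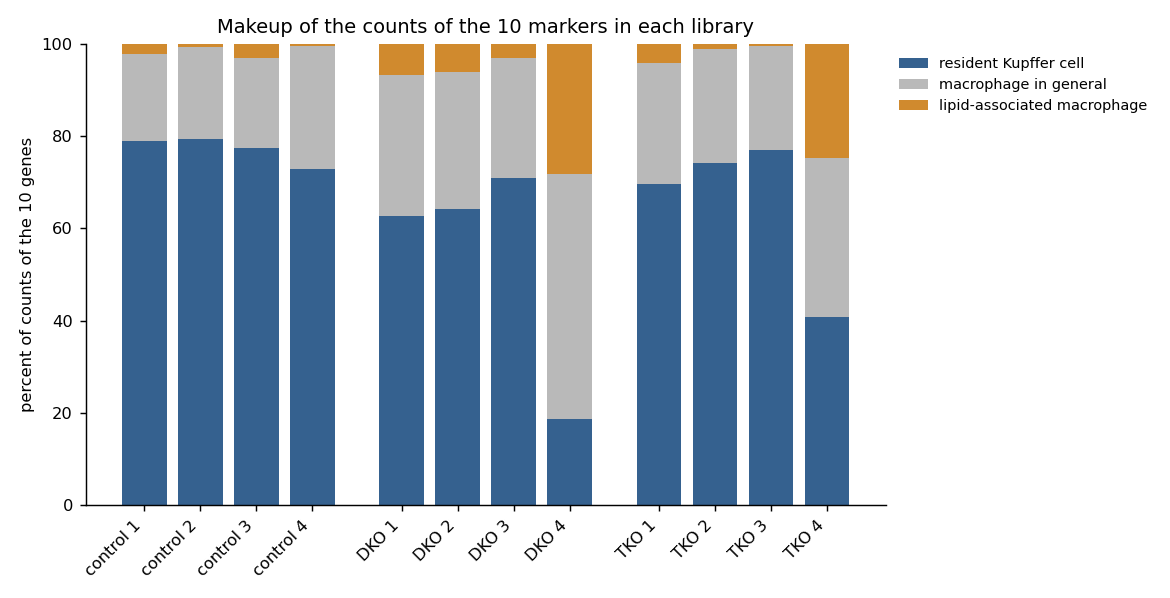
Percent of the counts of the 10 markers that the 5 resident Kupffer cell markers, the 3 general macrophage markers and the 2 lipid-associated markers took in each of the 12 libraries (stacked bars). The share of the resident markers is 72.9% to 79.4% in control livers, lower in all 4 DKO tumors, and 18.6% and 40.8% in DKO 4 and TKO 4.

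DKO 4 and TKO 4 stood apart from the other tumors in this makeup, and both differed elsewhere as well. The summed level of 10 sinusoidal endothelial genes was 200 CPM in DKO 4, with control livers at 210 to 308. It was also below every control in DKO 1, at 204 CPM. The lowest value in a DKO tumor was 2.06 CPM for Clec4g, 6.55 for Dnase1l3 and 1.24 for Oit3. Control livers had 32.6 to 42.1, 66.5 to 92.0 and 10.8 to 18.1 CPM. For Pecam1, Cdh5 and Kdr no DKO tumor was below the controls. The lowest DKO values, which need not be those of DKO 4, were among the controls at 21.8, 23.0 and 26.8 CPM. The sum of 10 stellate cell and fibroblast genes was 179 CPM in DKO 4, with control livers at 279 to 470. It was also below every control in DKO 1, DKO 2 and TKO 1, at 257, 212 and 239 CPM. The sum of 8 B and plasma cell genes was 4.13 CPM in DKO 4, with control livers at 12.8 to 30.6. This sum was also below every control in DKO 1, TKO 1 and TKO 4, at 8.51, 5.97 and 9.997 CPM. The sum over 18 genes of myeloid cells in general was 515 CPM in DKO 4 and 499 in TKO 4, inside the control range of 355 to 870. TKO 4 had the lowest sum of 10 hepatocyte genes, 62010 CPM, where control livers had 90660 to 147900. Most of that sum was albumin, which took 4.82% of the counts in TKO 4 and 6.57% to 10.1% in control livers. Of single hepatocyte genes, Hnf4a was at 541 to 801 CPM in TKO tumors and 553 to 717 in control livers. The lowest TKO value of Hnf4a was thus just below every control. Cps1 was at 453 to 3654 CPM in TKO tumors and 2852 to 4727 in control livers. The part of these differences in the marker levels was not tested.

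The 19 other genes of Kupffer cells were set beside the markers, and 0 of the 18 tested passed in any comparison. Their median log2 fold change was -0.46 in DKO against control, with 4 of 18 above 0, -0.05 in TKO against control, with 8 of 18 above 0, and -0.25 in all tumors against control, with 3 of 18 above 0. Their summed level was 847 to 1307 CPM in control livers, 442 to 1213 in DKO tumors and 679 to 1601 in TKO tumors, lowest in DKO 4. The lowest unadjusted p values in all tumors against control belonged to Vcam1, an adhesion molecule that endothelial cells also make, and Spic, a transcription factor of iron-handling macrophages. Vcam1 was at 21.0 ± 8.25 CPM in control livers, 43.4 ± 20.8 in DKO and 34.9 ± 4.99 in TKO (log2 fold change of all tumors 0.89, adjusted p = 0.113 by edgeR), and Spic at 1.27 ± 0.492, 2.19 ± 0.665 and 2.27 ± 0.427 CPM (0.79, adjusted p = 0.144).

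Of 20 lipid-associated macrophage genes 19 were tested, and their log2 fold changes were above 0 in 14 of 19 in DKO against control and in 15 of 19 in all tumors against control, with medians of 0.46 and 0.39. Lpl, which encodes lipoprotein lipase, rose in DKO tumors and was the only call. Its level was 23.5 to 47.1 CPM in control livers, 141 to 422 in DKO tumors and 123 to 603 in TKO tumors, without overlap. The log2 fold change was 3.26 in DKO against control (SE 0.545, adjusted p = 0.0292 by edgeR), 3.14 in all tumors against control (SE 0.512, adjusted p = 0.0346) and 3.01 in TKO against control (adjusted p = 0.0643). In DKO against control the call was lost without control 2, 3 or 4 or without DKO 1, 2 or 4, and with a covariate from Y-linked genes, under which edgeR called 0 genes in any comparison (1658 had an unadjusted p under 0.05 in DKO against control). In all tumors against control it was lost with that covariate and without any 1 of the control livers, DKO 1, DKO 2, TKO 1 or TKO 2. Every library had at most 6 Xist counts and at least 47.9 CPM of Ddx3y, as in males, so the covariate does not adjust for sex. It partly follows the groups: Uty, Ddx3y, Eif2s3y and Kdm5d had log2 fold changes of -0.08, -0.25, -0.41 and -0.95 in all tumors against control. A call lost under this covariate therefore says little about the call. Many cell types make Lpl, including fat and muscle cells. Cd63, a tetraspanin of lysosomes, was at 10.6 ± 4.27 CPM in control livers, 50.6 ± 19.9 in DKO and 47.9 ± 40.7 in TKO. It did not pass (adjusted p = 0.0734 in DKO against control by edgeR). Among the genes of the list below 0 in that comparison were Ctsk (-0.78), Apoe (-0.58) and Tyrobp (-0.49), which did not pass either. The summed level of the list, most of it Apoe, was 8097 to 12790 CPM in control livers. In DKO tumors the sum was 8050 to 9763 CPM and in TKO tumors 7391 to 11050.

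Phagocytes take up particles, cells and lipoproteins by receptors, of which 14 were tested. Cd36, a receptor for fatty acids and oxidized lipoproteins that hepatocytes and endothelial cells also carry, rose in DKO tumors and was the only one of the 14 called. It was at 25.9 ± 7.42 CPM in control livers, 137 ± 82.9 in DKO tumors and 68.2 ± 57.2 in TKO tumors (log2 fold change in DKO against control 2.40, SE 0.559, adjusted p = 0.0488 by edgeR). That call was lost with total counts as the only scaling, with the covariate from Y-linked genes, and without any 1 of the control livers, DKO 1, DKO 2, DKO 4 or TKO 1. In all tumors against control Cd36 had a log2 fold change of 1.90 (adjusted p = 0.0635).

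Among 14 tested genes of ligands and chemoattractants for macrophages 0 passed. Mfge8, a bridge between phagocytes and dying cells, was at 24.1 ± 9.61 CPM in control livers, 61.4 ± 14.4 in DKO and 43.9 ± 21.8 in TKO (log2 fold change in DKO against control 1.35, adjusted p = 0.0687 by edgeR). The chemokine gene Cxcl12 was at 399 ± 58.9, 207 ± 75.1 and 281 ± 111 CPM (-0.95, adjusted p = 0.107).

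Markers of other leukocytes did not pass either. Of 18 genes of myeloid cells in general 0 were called by edgeR in any comparison, nor were any of 12 monocyte, 6 neutrophil, 5 dendritic cell, 6 T and NK cell and 6 B and plasma cell genes that were tested. Nr4a1, a factor of patrolling monocytes, was at 1.18 ± 0.229 CPM in control livers, 2.30 ± 0.264 in DKO and 2.72 ± 1.80 in TKO, and the chemokine receptor gene Cx3cr1 was at 2.36 ± 1.33, 5.84 ± 2.85 and 4.30 ± 1.86 CPM (adjusted p = 0.110 and 0.138 in all tumors against control). The neutrophil sum was 3.73 to 27.7 CPM over all libraries. Of other cell types, 0 of 10 sinusoidal endothelial, 0 of 10 stellate cell and fibroblast, 0 of 10 hepatocyte, 0 of 4 cholangiocyte and 0 of 4 red blood cell genes that were tested passed. Pecam1, a gene of endothelium, was at 15.7 ± 5.30 CPM in control livers, 37.2 ± 21.8 in DKO and 29.8 ± 4.07 in TKO (adjusted p = 0.073 in all tumors against control).

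Among the genes other than the 10 markers, those whose log2 CPM followed a marker most closely over the 12 libraries were named as a description. For Clec4f these were Fabp7 (r = 0.966), Clec1b (0.950), Ptgs1 (0.947), Gatm (0.941) and Gpr162 (0.940), of which Fabp7 and Gpr162 had as few as 3 counts in a library. For Csf1r they were Treml4 (r = 0.964), C1qc (0.956), Ptgs1 (0.953), Slc7a8 (0.941) and Lilra5 (0.939). Ptgs1, which encodes a cyclooxygenase, was close to both markers, and Clec1b and C1qc, a chain of complement C1q, are among the 19 Kupffer cell genes above. For Trem2 the closest were Scube3 (r = 0.922), Megf11 (0.921), Usp18 (0.918), Hk1 (0.908) and Ctnnal1 (0.907), of which Scube3 and Megf11 had at most 19 and 16 counts in a library. None of these was a gene of the lipid-associated list.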

How the data were processed

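The authors sequenced poly(A) RNA from 4 control livers, 4 DKO tumors and 4 TKO tumors on a SOLiD instrument, aligned the reads to mm9 (BWA) and summed them by gene (featureCounts). Deposited were the resulting counts, whole and not normalized, for 26301 Entrez genes, of which 24191 had a symbol. Versions and the strand and multiple-mapping settings are not given in the sources used here. Counts were compared with edgeR 4.0.16 in R 4.3.3, with TMM scaling, the filterByExpr filter, 1 fit over all 12 libraries with a mean per group, the quasi-likelihood test and Benjamini-Hochberg adjustment over all tested genes at 0.05. Log2 CPM used a prior count of 2. DESeq2 1.42.0 and limma 3.58.1 (voom with quality weights) served as alternatives, beside other scalings, filters, covariates and sample sets.

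The markers and the lists beside them were chosen with earlier results of these data known. Genes named from the lists are those called, at most 4 per comparison, or else at most 2 per list with the lowest unadjusted p in all tumors against control, and not all of these are named. Lpl, Cd36 and the named ligand, Kupffer and monocyte genes follow that rule, and Csf1, Il34, Cd63 and the comparisons of shares were picked after their values were seen. So were Apoe, Tyrobp and Ctsk, and the endothelial and hepatocyte genes named beside DKO 4 and TKO 4. The genes closest to Clec4f, Csf1r and Trem2 are the 5, other than the markers, with the highest Pearson r.

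Gene positions and exon lengths are 1-based and from GENCODE vM1 (mm9), and promoter sequences from RefSeq (GRCm38.p6). Total counts of 9165812 to 16424973 limit low genes, and p-values measure the spread between the 4 livers or tumors of a group, which the methods describe as separate samples. The labels name no batch. The deposited sample names carry letters, some shared between groups, whose meaning is not stated and which were not used. The code was tested on simulated data. Every pair of libraries differed by more than sampling noise.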

Additional observations from a re-analysis of the deposited data

Results flagged for a closer look

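Over the 30 groups of 4 values formed by the 10 markers and 3 groups, 2 held a library far from the other three by Dixon's test, and chance alone flags about 1 group in 20. Marco was at 5.06 CPM in TKO 3, where the other TKO tumors were at 0.597 to 1.35 CPM. TKO 3 also had the highest Clec4f and Cd5l of the 12 libraries. Gpnmb was at 42.1 CPM in TKO 4, where the other TKO tumors were at 1.07 to 5.67 CPM, and Trem2 in TKO 4, at 2.69 CPM, was second only to DKO 3 among the 12 libraries. The cause of either value was not tested.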

How the results depend on the processing

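Under every alternative run, 0 of the markers tested were called in any comparison, 7 of the 10 being tested where at least 10 counts in every library were asked (not Marco, Trem2 or Gpnmb), with adjusted p never below 0.0515 (Marco in all tumors against control, without TKO 3). Some directions turned. With voom quality weights, Adgre1 turned to 0.27 in DKO against control, to 0.25 in TKO against control, to 0.26 in all tumors and to -0.029 in TKO against DKO, and Csf1r to 0.15 in TKO against control. With a covariate from Y-linked genes Cd5l was 0.013 in TKO against control. With total counts as the only scaling, Cd68 was 0.038 and Gpnmb 0.11 in TKO against DKO. Leaving out 1 library at a time, log2 fold changes ran from -0.55 to 0.15 for Adgre1 in DKO against control; in TKO against control from -0.70 to 0.20 for Cd5l, -0.56 to 0.25 for Adgre1, -0.49 to 0.35 for Csf1r and -0.58 to 2.05 for Gpnmb; in all tumors from -0.46 to 0.20 for Adgre1 and -0.54 to 0.15 for Csf1r. In TKO against DKO they ran from -1.36 to 0.64 for Marco, -0.14 to 1.01 for Vsig4, -0.016 to 0.76 for Timd4, -0.30 to 0.39 for Adgre1, -0.024 to 0.91 for Csf1r, -0.22 to 0.13 for Cd68 and -2.16 to 0.22 for Gpnmb. The number of all genes called in DKO against control was 336, and ran from 0 (Y-linked covariate, or without control 2 or 3) to 1804 (voom); in TKO against control it was 12, with 0 to 498 over the alternatives, and in TKO against DKO 0, with 56 by DESeq2. The cause of these shifts was not tested.

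The replicate numbers repeat between groups but belong to different mice. Same-numbered libraries had correlations of their deviations from the group means of -0.174 to 0.370 over 12 pairs, of which 5 were above 0.1, so the numbers were not taken as pairs. With the replicate block 0 of 10 markers were called, Marco in TKO against DKO turned to 0.043, and the calls among all genes went from 336 to 509 in DKO against control and from 12 to 1 in TKO against control. Clec4f went from -1.03 to -1.87 and from -0.42 to -1.04 in these.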
